A study of Mus musculus with 6 samples.

Results

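The enzymes described here are the 3 gene families of mouse liver that attach a water-soluble group to drugs, toxins, hormones and bile products: glutathione transferases, UDP-glucuronosyltransferases and sulfotransferases. Members were the protein-coding genes whose GENCODE symbol starts with Gst, Mgst, Ugt or Sult and that reached 10 deposited counts in at least 1 library. The rule took 62 of the 54446 genes in the table, namely 25 glutathione transferases, 20 glucuronosyltransferases and 17 sulfotransferases. Families were assigned by symbol alone, so a member such as Gstcd or Ugt8a need not be such an enzyme. Another 7 genes with these prefixes (Gstt4, Sult1c1, Sult2b1, Sult6b1, Sult6b2, Ugt2a1 and Ugt2a2) had 0 counts in every library.

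Poly-A RNA of mouse liver was sequenced at weeks 0, 2 and 7 of a treatment named in the series title as MET/CAT with SB transposase, in 2 libraries a week. MET is a receptor tyrosine kinase and an SB transposase inserts DNA that carries its recognition ends, whereas the word CAT is not spelled out in the labels. The libraries hold no untreated mice at weeks 2 or 7, so treatment cannot be told apart from age or from any other difference between the weeks. The label of the first week 0 library names a line that mixes FVB/N with C57BL/6, and the number behind C57BL/ goes up by 2 with each following sample, which leaves the strain of the others unsure. Both week 2 libraries had the expression of female liver (13236 and 12804 Xist counts, 0 counts of 4 Y-linked genes), and the week 0 and week 7 libraries that of male liver (0 to 15 Xist counts). Time and sex therefore cannot be told apart in any comparison with week 2. No label says that the 2 libraries of a week came from separate animals, so p-values measure only the spread between these libraries, which may be technical.

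Liver clears foreign and endogenous compounds in steps. Oxidizing enzymes, mostly cytochromes P450, expose a reactive group, and the conjugating enzymes then join it to glutathione, to glucuronic acid from UDP-glucuronic acid, or to sulfate from the donor PAPS. The conjugates leave the cell through ABC transporters into bile or blood. Many of these genes respond to the sensors NRF2 (Nfe2l2), the aryl hydrocarbon receptor, PXR (Nr1i2) and CAR (Nr1i3). In mice several of them also differ between the sexes: transcripts of Sult2a and Sult3a sulfotransferases are known to be higher in female liver, and Gstp1 is known to be higher in male liver.

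Upstream sequences are shown for members called between weeks 0 and 7: the 5 mu-class glutathione transferases that were higher, the alpha-class Gsta3 that was lower, and the Sult3a pair that was near 0 at week 0, highest at week 2 and between at week 7. They come from RefSeq promoter windows on build GRCm38.p6 and run 5′ to 3′ on the strand of the gene. Each stretch of 100, 130 or 150 bases ends right before the transcript start, except that 19 bases are left out for Gstm2, 95 for Gstm3 and 1 for Gstm6, where a GENCODE transcript of the gene reaches further upstream. The 5 mu-class genes shown lie together on chromosome 3, on the minus strand. Their stretches are at chr3:108017974-108018073 (Gstm1), chr3:107986440-107986539 (Gstm2), chr3:107969270-107969369 (Gstm3), chr3:107943736-107943835 (Gstm6) and chr3:107931818-107931917 (Gstm7). Gsta3 is at chr1:21240455-21240584 on the plus strand. Sult3a1 is at chr10:33857572-33857721 on the plus strand and Sult3a2 at chr10:33782116-33782265 on the minus strand. Capitals mark the xenobiotic response element core GCGTG in Gstm1, bound by the aryl hydrocarbon receptor, and the antioxidant response element pattern TGACNNNGC in Gsta3, bound by NRF2.
Gstm1: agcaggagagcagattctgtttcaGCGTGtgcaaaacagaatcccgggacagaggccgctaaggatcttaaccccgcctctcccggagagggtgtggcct
Gstm2: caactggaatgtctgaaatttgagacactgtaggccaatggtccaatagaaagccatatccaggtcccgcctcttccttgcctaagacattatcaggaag
Gstm3: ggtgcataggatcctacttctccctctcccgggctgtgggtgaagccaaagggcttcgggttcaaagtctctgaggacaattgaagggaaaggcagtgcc
Gstm6: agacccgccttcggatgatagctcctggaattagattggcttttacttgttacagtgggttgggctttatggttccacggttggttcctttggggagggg
Gstm7: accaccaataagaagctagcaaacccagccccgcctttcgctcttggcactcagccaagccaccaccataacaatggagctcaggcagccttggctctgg
Gsta3: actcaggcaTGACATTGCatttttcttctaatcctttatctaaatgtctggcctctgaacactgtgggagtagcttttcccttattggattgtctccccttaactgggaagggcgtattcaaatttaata
Sult3a1: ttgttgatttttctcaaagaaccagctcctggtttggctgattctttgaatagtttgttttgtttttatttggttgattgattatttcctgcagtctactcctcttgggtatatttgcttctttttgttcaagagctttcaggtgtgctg
Sult3a2: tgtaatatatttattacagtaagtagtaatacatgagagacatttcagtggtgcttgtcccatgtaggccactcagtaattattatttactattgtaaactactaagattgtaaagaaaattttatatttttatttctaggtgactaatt

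The 250 bases upstream of the start were searched on both strands for 4 patterns in the 54 members with a window, counting a member when any of its windows matched. The antioxidant response element pattern TGACNNNGC was found in 4 members (Gsta3, Gstm5, Gstm7 and Mgst1), 7.41% of the 54, against 11.5% of 27025 genes with a window. The core GCGTG was found in 12 members, or 22.2%, against 30.9% of genes. The TCF/LEF pattern CTTTGAT was found in 2 members (Sult2a8 and Ugt8a), or 3.70%, against 3.72% of genes. The HNF1 pattern was in 0 members and in 3 genes (0.0111%). The match of Gstm7 lies in its other window, 129 bases before that start, and is not printed. In Gstm5 a match to TGACNNNGC overlaps a match to GCGTG, the 1 overlap among all matches. Of the 13 members with a window that rose by week 7, 1 held TGACNNNGC and 1 held GCGTG, and of the 14 that fell, 2 held each. These are matches of letters and not shown binding sites.

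The libraries held 49353453 to 58434358 deposited counts, and the 62 members took 1.24% to 1.48% of them. The defining hepatocyte genes were high in every library: their summed level was 91407 and 92018 CPM (deposited counts relative to library size, scaled between libraries by edgeR's TMM) in week 0, 109632 and 115815 in week 2, and 78635 and 78860 in week 7. Most of that sum is Alb, with a mean of 65490, 95488 and 54244 CPM in weeks 0, 2 and 7. By edgeR adjusted p under 0.05, 4 of the 6 fell between weeks 0 and 7 and 1 rose. By week 2, 4 also fell and only Alb rose. Of all genes tested, 6.23% were lower and 7.58% higher at week 7, and 8.81% and 9.81% at week 2. The calls of the other cell types below are by the same test. All 6 Kupffer cell markers fell, from a summed 334 to 339 CPM in week 0 to 240 to 242 in week 7, with 450 to 454 in week 2. Of 5 stellate cell markers 3 fell and 1 rose, with sums of 161 to 167, 215 to 217 and 121 to 124 CPM in weeks 0, 2 and 7. The 6 cholangiocyte markers summed to 19.3 to 19.7, 30.3 to 36.8 and 19.2 to 19.5 CPM, and Cftr among them was at 0 in weeks 0 and 2. Most of that sum is Spp1. Krt19, the 1 cholangiocyte marker called at week 7, had 0.28 and 0.746 CPM in week 0, 4.65 and 5.77 in week 2, and 4.52 and 4.67 in week 7, and it was 8.95-fold higher at week 7 than at week 0 (edgeR adjusted p = 0.0011) and 10.2-fold higher at week 2 (adjusted p = 0.000464). Epcam, Spp1, Sox9 and Krt7 did not rise with Krt19 at week 7 and were not called (log2 -1.16, -0.35, -0.33 and -0.01). At week 2 Spp1 was also higher (1.66-fold, adjusted p = 0.00312), while Epcam, Sox9 and Krt7 were not called. The part of these shifts in the results was not tested. In such bulk samples fewer cells of a type and less RNA per cell cannot be told apart.

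By week 7, 5 of 7 mu-class and 2 of 3 theta-class glutathione transferases had risen, and a few sulfotransferases near 0 at week 0 had appeared. Most glucuronosyltransferases that were called had fallen, but only Ugt1a9, Ugt2a3 and Ugt3a1 kept that call under all scalings, filters, fits and left-out libraries tried. Of the 59 members that could be tested, 14 were higher at week 7 than at week 0, 14 were lower and 31 did not pass (edgeR quasi-likelihood test, 2-sided, Benjamini-Hochberg adjusted p under 0.05 over 15368 genes). The 28 called members are 45.2% of all 62, which include 3 not tested, where 13.8% of all genes tested were called, 7.58% higher and 6.23% lower. Members are more abundant than most genes, and abundant genes were called more often. Of the 43 members with a mean of at least 20 CPM 55.8% were called, beside 26.0% of the 5112 genes at that level. By family, 7 glutathione transferases were higher and 3 lower, 2 glucuronosyltransferases were higher and 9 lower, and 5 sulfotransferases were higher and 2 lower. The median log2 fold change of the 48 members that passed the filter on low counts in both weeks was -0.10, beside 0.00156 for all genes tested. The 5 sulfotransferases that were higher passed that filter at week 7 and not at week 0, so they enter no median. With so few counts at week 0, they had no room to be called lower.

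**Figure D1:**
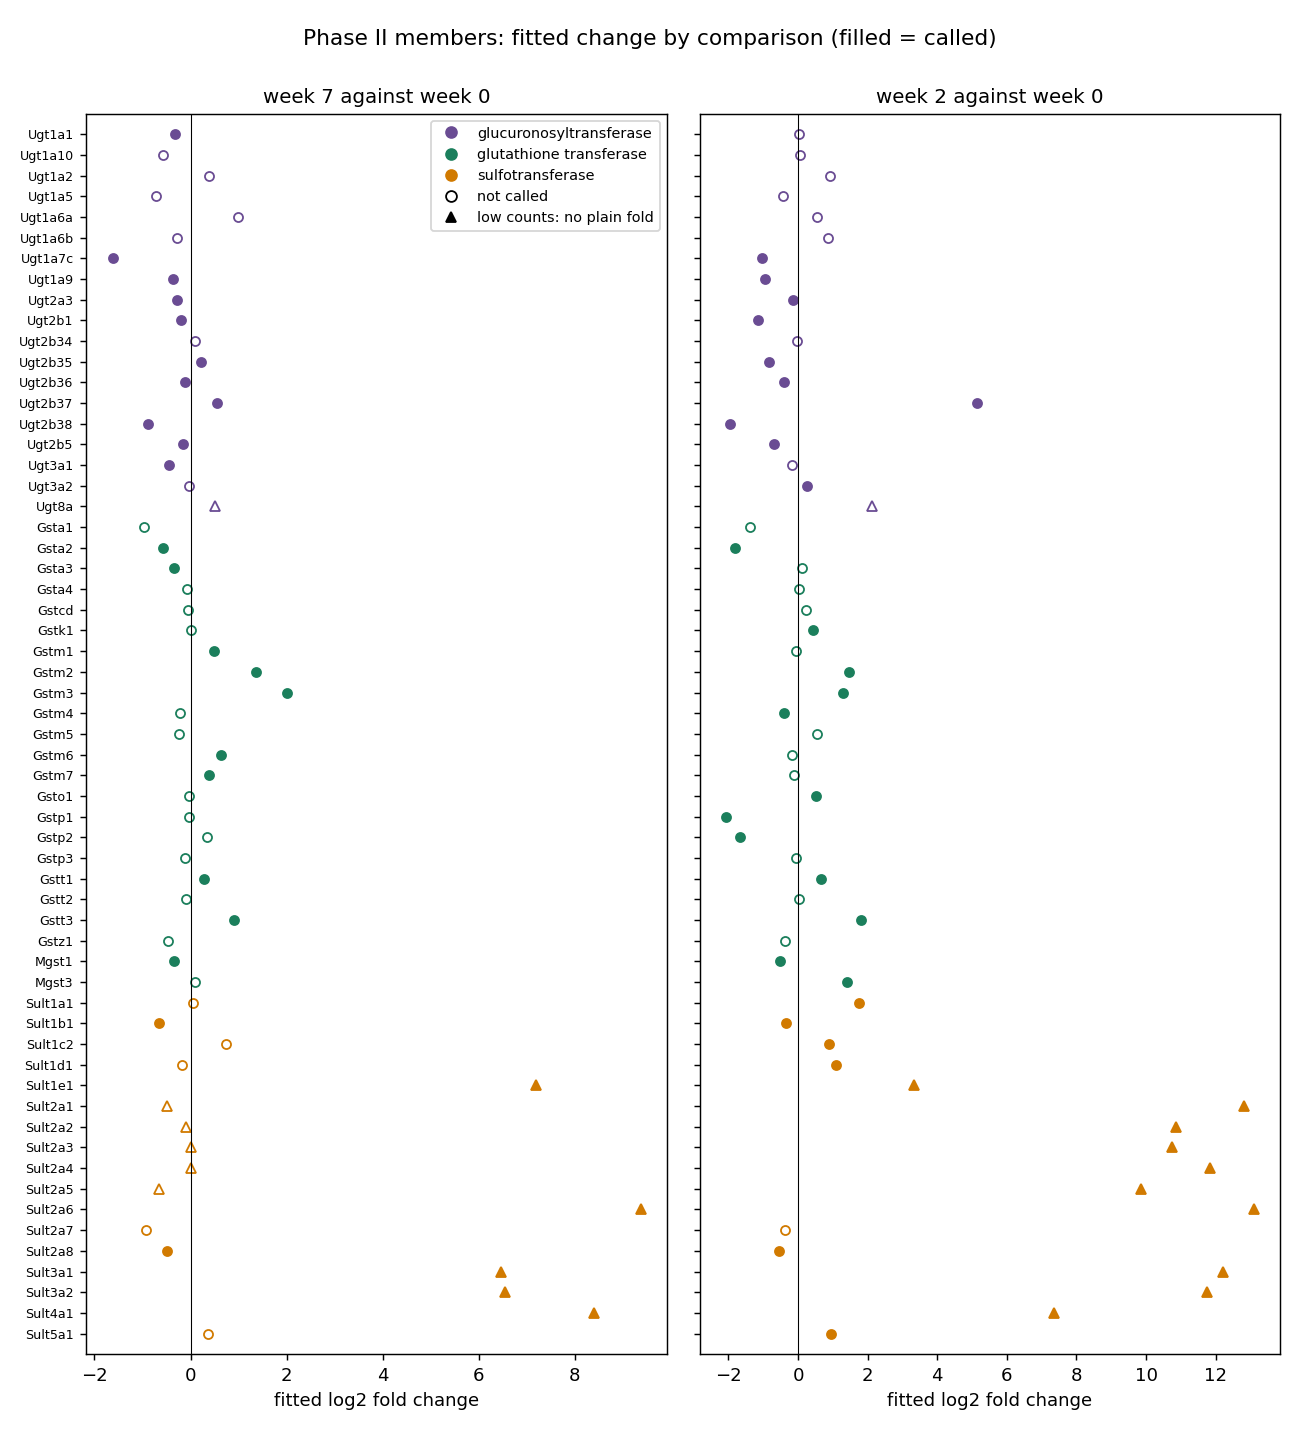
Fitted log2 fold change (x axis) of the 59 tested members (rows), week 7 against week 0 on the left and week 2 against week 0 on the right, coloured by family; both panels use the same week 0 libraries. Filled marks passed an adjusted p under 0.05, and triangles are members with so few counts in a week that the fitted size depends on the model; most changes at week 7 are small beside those of the sulfotransferases at week 2.

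Leaving out 1 library ended 13 of these 28 calls, which are named with their families. A value in parentheses with no name of its own is an adjusted p of the test just named. The higher count fell to 9 without week 7 replicate 1. The lower count fell to 8 without week 7 replicate 1 and to 9 without either week 0 library. Under all scalings, filters, fits and left-out libraries tried, 14 of the 28 kept their call: Gsta3, Gstm1, Gstm2, Gstm3, Gstm6, Gstt1, Gstt3, Sult1b1, Sult1e1, Sult2a6, Sult2a8, Ugt1a9, Ugt2a3 and Ugt3a1. Reads of near-identical genes may have been divided in ways the table does not show. As a guide, 32 members share no stretch of 100 bases with another gene's transcripts in GENCODE, and 20 share over 10% of such stretches, 2 of the 14 higher members (Gstm3 and Gstt3) and 6 of the 14 lower ones among them.

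The mu class (Gstm), cytosolic enzymes that conjugate epoxides and aromatic compounds, had 5 of 7 members higher and 0 lower between weeks 0 and 7. Their summed share of a library went from 0.0885% and 0.0958% to 0.153% and 0.146%. Gstm3 (ENSMUSG00000004038) had 56.2 and 53.8 CPM in week 0, 134 and 137 in week 2, and 220 and 221 in week 7. The weeks do not overlap, and each later week is above the one before. Gstm3 rose 4.01-fold by week 7 (log2 fold change 2.00, SE 0.0512, edgeR adjusted p = 8.51e-08), the largest rise among members with over 10 CPM at week 0, and 13.8% of its 100-base stretches occur in other genes' transcripts.

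Gstm2 (ENSMUSG00000040562) had 47.7 and 43.4 CPM in week 0, 120 and 130 in week 2, and 120 and 115 in week 7. Its later libraries are all above week 0, and weeks 2 and 7 lie close together. The week 7 level was 2.58 times that of week 0 (log2 1.37, SE 0.071, adjusted p = 6.68e-06). Gstm1 (ENSMUSG00000058135), the mu-class member with the most counts, had 641 and 703 CPM in week 0, 629 and 653 in week 2, and 962 and 926 in week 7. Only the week 7 libraries stand apart for it (1.40-fold, log2 0.49, SE 0.0469, adjusted p = 0.000237). Gstm6 (ENSMUSG00000068762) had 65.8 and 61.2 CPM in week 0, 59.8 and 53.5 in week 2, and 99.95 and 97.99 in week 7. It too was high at week 7 alone (1.56-fold, log2 0.64, SE 0.0764, adjusted p = 0.000807).

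Gstm7 (ENSMUSG00000004035) had 50.4 and 60.4 CPM in week 0, 54.9 and 46.8 in week 2, and 73.3 and 70.9 in week 7. The week 7 libraries are the highest (1.30-fold, log2 0.38, SE 0.107), but its adjusted p of 0.0484 is close to the threshold. It no longer passed without week 0 replicate 1 (adjusted p = 0.238), week 7 replicate 1 (0.199) or week 7 replicate 2 (0.142), nor with median-of-ratios scaling (0.0503), upper-quartile scaling (0.0639) or voom (0.0609). The other mu-class members are given to complete the class and were chosen after their values were seen. Gstm4 had 47.6 ± 3.0 CPM at week 0 and 40.6 ± 0.686 at week 7 (SD, n = 2, edgeR adjusted p = 0.105). Gstm5 had 9.91 ± 1.68 and 8.36 ± 1.86 CPM (adjusted p = 0.47).

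The theta class (Gstt), which acts on small halogenated compounds, had 2 of 3 members higher at week 7. Gstt1 (ENSMUSG00000001663) had 224 and 225 CPM in week 0, 353 and 363 in week 2, and 274 and 275 in week 7. Replicates nearly coincide, and week 7 lies between the other weeks (1.22-fold above week 0, log2 0.29, SE 0.0378, adjusted p = 0.00135). Gstt3 (ENSMUSG00000001665) had 24.5 and 31.4 CPM in week 0, 93.3 and 101 in week 2, and 56.2 and 49.1 in week 7. The order of the weeks is the same (1.88-fold, log2 0.91, SE 0.126, adjusted p = 0.00276), although 23.9% of the gene's 100-base stretches also occur in Gm20441. Gstt2 did not pass the test.

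In the alpha class 2 of 4 members, Gsta2 and Gsta3, were lower at week 7, and so was the membrane-bound Mgst1 of the endoplasmic reticulum, while Gsta1 and Gsta4 did not pass. Gsta3 (ENSMUSG00000025934), a major hepatocyte transferase that also detoxifies aflatoxin epoxide in mice, had 1466 and 1490 CPM in week 0, 1611 and 1568 in week 2, and 1141 and 1192 in week 7. Week 7 is below all other libraries (1.27-fold lower, log2 -0.34, SE 0.0319, adjusted p = 0.000201). Gsta2 (ENSMUSG00000057933) had 44.2 and 39.2 CPM in week 0, 10.9 and 12.6 in week 2, and 27.2 and 28.6 in week 7. It fell 1.5-fold by week 7 (log2 -0.58, SE 0.11, adjusted p = 0.00912). Without week 0 replicate 1 (adjusted p = 0.0689) or week 7 replicate 1 (0.0656) it was no longer called, and 35.0% of the gene's 100-base stretches occur in other genes.

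Mgst1 (ENSMUSG00000008540), the microsomal transferase, had 1986 and 2322 CPM in week 0, 1529 and 1487 in week 2, and 1723 and 1683 in week 7. Its week 0 libraries are the highest and also the most spread. The fall at week 7 was 1.26-fold (log2 -0.34, SE 0.076, adjusted p = 0.0493), and it was lost without week 2 replicate 1 (0.0808), week 2 replicate 2 (0.0758), week 7 replicate 1 (0.234) or week 7 replicate 2 (0.273), with median-of-ratios (0.0541) and total-count scaling (0.08), with no filter (0.139) and with the 4 compared libraries alone (0.0684).

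The pi class (Gstp), linked in rat liver with preneoplastic foci, had 0 of 3 members called between weeks 0 and 7. Gstp3 (ENSMUSG00000058216) had 801 and 838 CPM in week 0, 782 and 793 in week 2, and 780 and 743 in week 7 (week 7 adjusted p = 0.102). Gstp1 (ENSMUSG00000060803) had 503 and 515 CPM in week 0, 122 and 120 in week 2, and 527 and 472 in week 7. Weeks 0 and 7 overlap (log2 -0.03, adjusted p = 0.811), whereas both week 2 libraries are far below. Of the remaining glutathione transferases, Gstk1, Gsto1, Mgst3, Gsta1, Gsta4, Gstcd, Gstp2 and Gstz1 did not pass at week 7. Gstz1 (ENSMUSG00000021033), an enzyme of tyrosine breakdown chosen after its values were seen, had 668 and 385 CPM in week 0, 403 and 402 in week 2, and 385 and 372 in week 7. Here week 0 replicate 1 alone stands apart.

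**Figure D2:**
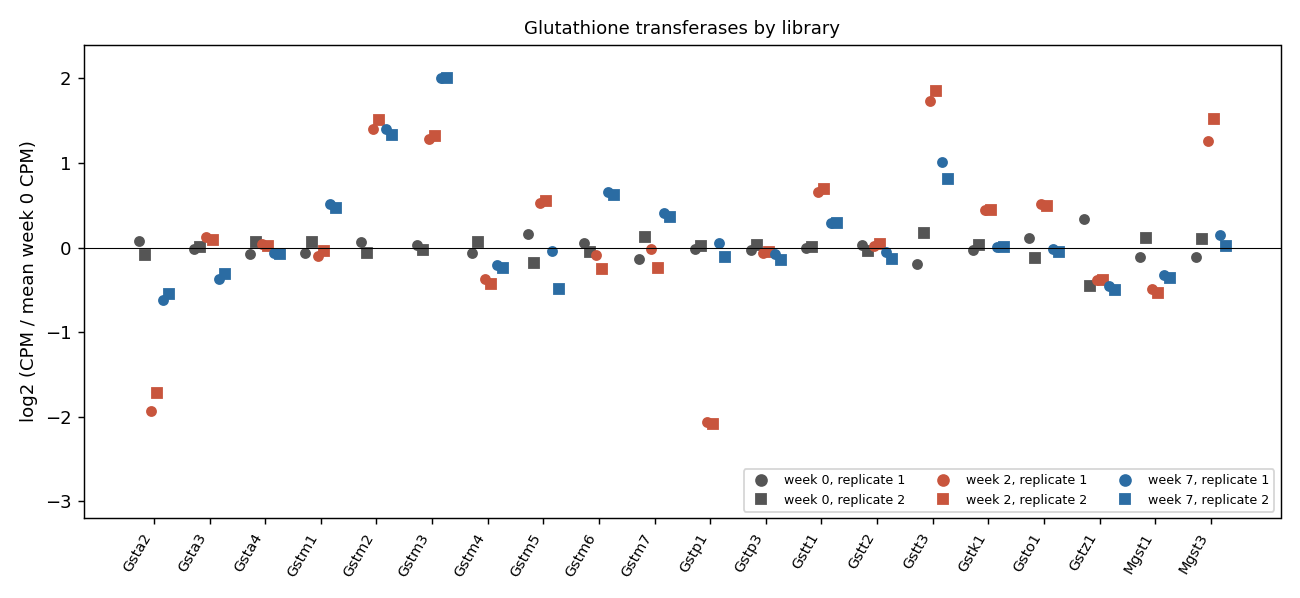
Each point is 1 library's level of a glutathione transferase as log2 of its CPM over the gene's mean week 0 CPM, for 20 of the 25 members, coloured by week with a marker for each replicate. Gstm1, Gstm2, Gstm3, Gstm6 and Gstm7 are above 0 in both week 7 libraries, Gstm2, Gstm3 and Gstt3 are also above it in both week 2 libraries, and Gstp1 is low in the week 2 libraries alone.

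Among glucuronosyltransferases 9 were lower at week 7 and 2 higher, and the falls were mostly small. The Ugt1a enzymes are made from 1 locus whose first exons differ and whose later exons are common to all, so reads from the common part cannot be given to 1 member: from 58.2% to 100% of a member's 100-base stretches occur elsewhere. The locus as a whole took 0.113% and 0.111% of counts in week 0, 0.122% and 0.12% in week 2, and 0.105% and 0.103% in week 7. Ugt1a9 (ENSMUSG00000090175), which conjugates phenols, had 413 and 413 CPM in week 0, 218 and 209 in week 2, and 324 and 318 in week 7. Week 0 is the highest (1.29-fold lower at week 7, log2 -0.36, SE 0.0391, adjusted p = 0.000469). Ugt1a1 (ENSMUSG00000089960), the bilirubin enzyme, had 293 and 298 CPM in week 0, 307 and 294 in week 2, and 218 and 257 in week 7.

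The week 7 libraries of Ugt1a1 are lowest and differ from each other (log2 -0.31, SE 0.0728, adjusted p = 0.0288). The call was lost without week 0 replicate 1 (0.124), week 0 replicate 2 (0.145), week 2 replicate 1 (0.0537) or week 2 replicate 2 (0.0514). Ugt1a7c (ENSMUSG00000090124) was low throughout, with 3.33 and 4.04 CPM in week 0, 1.87 and 1.74 in week 2, and 1.33 and 1.06 in week 7. It fell 3.08-fold (log2 -1.62, SE 0.302, adjusted p = 0.00852), a call lost without week 0 replicate 2 (0.0536). Ugt1a6a, Ugt1a6b, Ugt1a2, Ugt1a5 and Ugt1a10 did not pass. Ugt1a6a, named after its values were seen, had 101 and 63.4 CPM in week 0, 137 and 102 in week 2, and 203 and 126 in week 7, and all its 100-base stretches occur in Ugt1a7c.

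The Ugt2b enzymes conjugate steroids, fatty acids and bile acids, and 4 of 7 fell while 2 rose. Ugt2b5 (ENSMUSG00000054630) had 933 and 896 CPM in week 0, 585 and 554 in week 2, and 801 and 837 in week 7. Ugt2b1 (ENSMUSG00000035836) had 899 and 880 CPM in week 0, 406 and 394 in week 2, and 731 and 809 in week 7. Ugt2b36 (ENSMUSG00000070704) had 632 and 630 CPM in week 0, 473 and 477 in week 2, and 576 and 581 in week 7. In these 3 abundant members week 0 was highest and week 2 lowest, with week 7 between them. Their falls by week 7 were 1.12-fold for Ugt2b5 (SE of the log2 value 0.0402, adjusted p = 0.0317), 1.15-fold for Ugt2b1 (SE 0.0479, 0.0219) and 1.09-fold for Ugt2b36 (SE 0.0313, 0.0296).

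None of those 3 calls held without week 0 replicate 1 (0.189, 0.122 and 0.136 in the same order), week 0 replicate 2 (0.066, 0.0771 and 0.126) or week 7 replicate 1 (0.157, 0.0817 and 0.101), nor with the 4 compared libraries alone. The Ugt2b36 call was also lost without week 7 replicate 2 (0.0684), week 2 replicate 1 (0.0696) or week 2 replicate 2 (0.0758), and those of Ugt2b36 and Ugt2b5 with total-count scaling (0.13 and 0.0621). Ugt2b34 (ENSMUSG00000029260) had 521 and 507 CPM in week 0, 517 and 494 in week 2, and 520 and 572 in week 7, with overlap between weeks and no call.

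Ugt2b38 (ENSMUSG00000061906) had 34.8 and 38.3 CPM in week 0, 11.2 and 7.55 in week 2, and 21 and 18.5 in week 7. The 3 weeks do not overlap (1.85-fold lower at week 7, log2 -0.89, SE 0.178, adjusted p = 0.0142). The call was lost without any 1 of the week 0 or week 7 libraries (0.0549 and 0.0849 without week 0 replicates 1 and 2, 0.0653 and 0.107 without week 7 replicates 1 and 2), and 24.2% of its 100-base stretches occur in Ugt2b5. Ugt2b35 (ENSMUSG00000035811) had 188 and 189 CPM in week 0, 110 and 101 in week 2, and 213 and 223 in week 7. It was the 1 member higher at week 7 and lower at week 2 (week 7 log2 0.21, SE 0.054, adjusted p = 0.0327), and the week 7 call was lost without any week 0 or week 7 library (0.145 and 0.122 without week 0 replicates 1 and 2, 0.0656 and 0.148 without week 7 replicates 1 and 2) and with upper-quartile scaling (0.062).

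Ugt2b37 (ENSMUSG00000057425) had 4.39 and 4.6 CPM in week 0, 160 and 154 in week 2, and 6.87 and 6.38 in week 7. Both later weeks are above week 0, by very different amounts. The week 7 rise was 1.47-fold (log2 0.56, SE 0.0816, adjusted p = 0.00248), and it was lost with the 4 compared libraries alone (0.107) and with voom (0.0932). Ugt2a3 (ENSMUSG00000035780), a related enzyme, had 315 and 311 CPM in week 0, 287 and 277 in week 2, and 249 and 266 in week 7, the lowest levels being those of week 7 (log2 -0.28, SE 0.0446, adjusted p = 0.00398). Ugt3a1 (ENSMUSG00000072664), of a subfamily whose human enzymes use other UDP-sugars, had 76.8 and 76.5 CPM in week 0, 62.3 and 73.2 in week 2, and 55.5 and 56.4 in week 7 (week 7 log2 -0.45, SE 0.084, adjusted p = 0.00826).

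**Figure D3:**
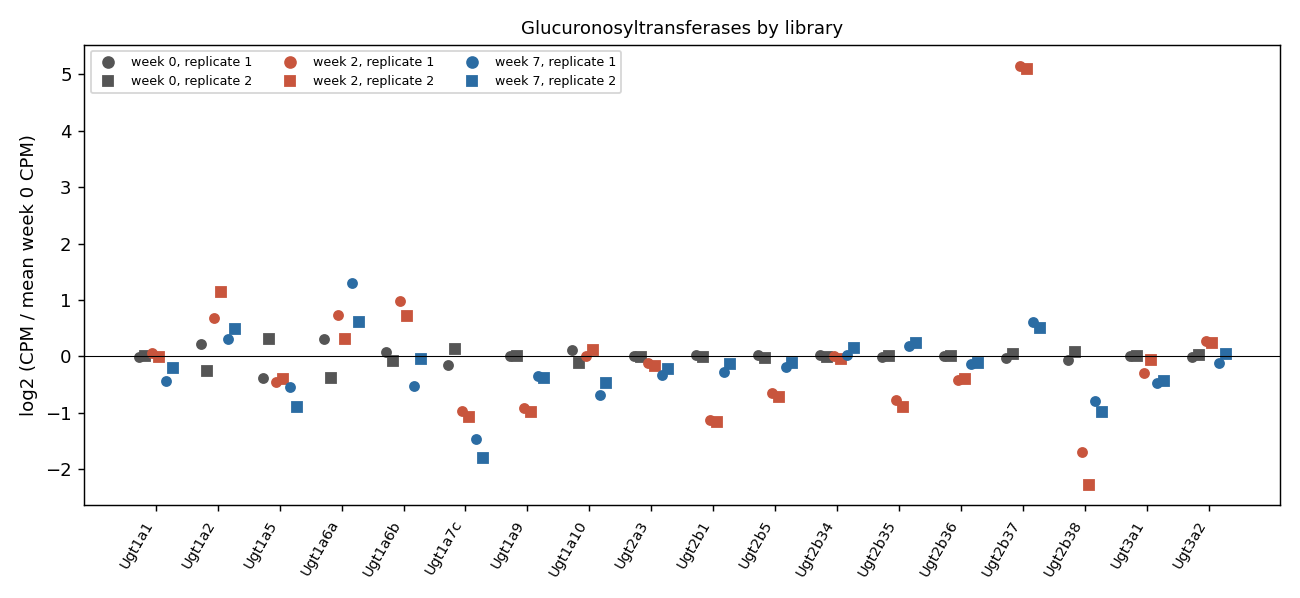
Glucuronosyltransferase levels by library as log2 of CPM over the gene's mean week 0 CPM, for 18 of the 20 members, coloured by week with a marker for each replicate. Most week 7 points lie within 1 log2 unit of week 0, while Ugt2b37 exceeds 5 log2 units in both week 2 libraries and the Ugt1a6a replicates are widely spread.

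The sulfotransferases held both the largest relative rises at week 7 and members that fell. The rises start from almost no counts, so sizes are given as counts or as lower bounds. Where a week has 0 counts, the bound is computed against 12 counts in each library, taken as 3 read pairs, and it covers counting error only. Sult1e1 (ENSMUSG00000029272), which inactivates estrogens, had 5 and 5 deposited counts in week 0, 86 and 39 in week 2, and 837 and 769 in week 7. Counts at week 7 are far above all other libraries (edgeR adjusted p = 1.88e-05 against week 0) and correspond to 15.5 and 15 CPM. Against week 2 the level was 14.6-fold higher (adjusted p = 6.6e-05).

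Sult3a1 (ENSMUSG00000069668), an amine sulfotransferase, had 0 and 25 counts in week 0, 75597 and 69203 in week 2, and 1218 and 1172 in week 7. Sult3a2 (ENSMUSG00000090298) had 0 and 8 counts in week 0, 17772 and 16376 in week 2, and 392 and 427 in week 7. Both genes of the pair were thus near 0 at week 0, highest at week 2 and between at week 7 (week 7 against week 0 adjusted p = 0.0319 and 0.0112). The Sult3a1 call was lost without week 2 replicate 1 (0.106), week 2 replicate 2 (0.102), week 7 replicate 1 (0.137) or week 7 replicate 2 (0.133), and with the 4 compared libraries alone (0.0803). The Sult3a2 call was lost without week 7 replicate 1 (0.0681) or week 7 replicate 2 (0.0738).

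Sult2a6 (ENSMUSG00000070810), of the hydroxysteroid sulfotransferases, had 0 and 0 counts in week 0, 1254 and 1187 in week 2, and 70 and 91 in week 7. It was at least 6.29-fold higher at week 7 than at week 0 (adjusted p = 6.77e-05). Sult4a1 (ENSMUSG00000018865), mainly a brain protein, had 0 and 0 counts in week 0, 24 and 21 in week 2, and 47 and 35 in week 7. It was at least 3.18-fold higher at week 7 (adjusted p = 0.0133), a call lost without week 7 replicate 1 (0.0656). These 2 genes differ in where they peaked, week 2 for Sult2a6 and week 7 for Sult4a1, although weeks 7 and 2 did not differ for Sult4a1 by the test (adjusted p = 0.512).

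The members that fell were expressed at week 0. Sult2a8 (ENSMUSG00000030378), a bile acid sulfotransferase, had 1049 and 1021 CPM in week 0, 720 and 707 in week 2, and 698 and 771 in week 7. Later libraries are all below week 0 (1.41-fold lower at week 7, log2 -0.49, SE 0.0466, adjusted p = 0.000229). Sult1b1 (ENSMUSG00000029269), which acts on thyroid hormones, had 45.1 and 43.2 CPM in week 0, 33.4 and 35.9 in week 2, and 25.8 and 30.0 in week 7. Its 3 weeks do not overlap (1.58-fold lower at week 7, log2 -0.66, SE 0.0983, adjusted p = 0.00276). Sult1a1, Sult1c2, Sult1d1, Sult5a1 and Sult2a1 to Sult2a5 with Sult2a7 did not pass between weeks 0 and 7.

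**Figure D4:**
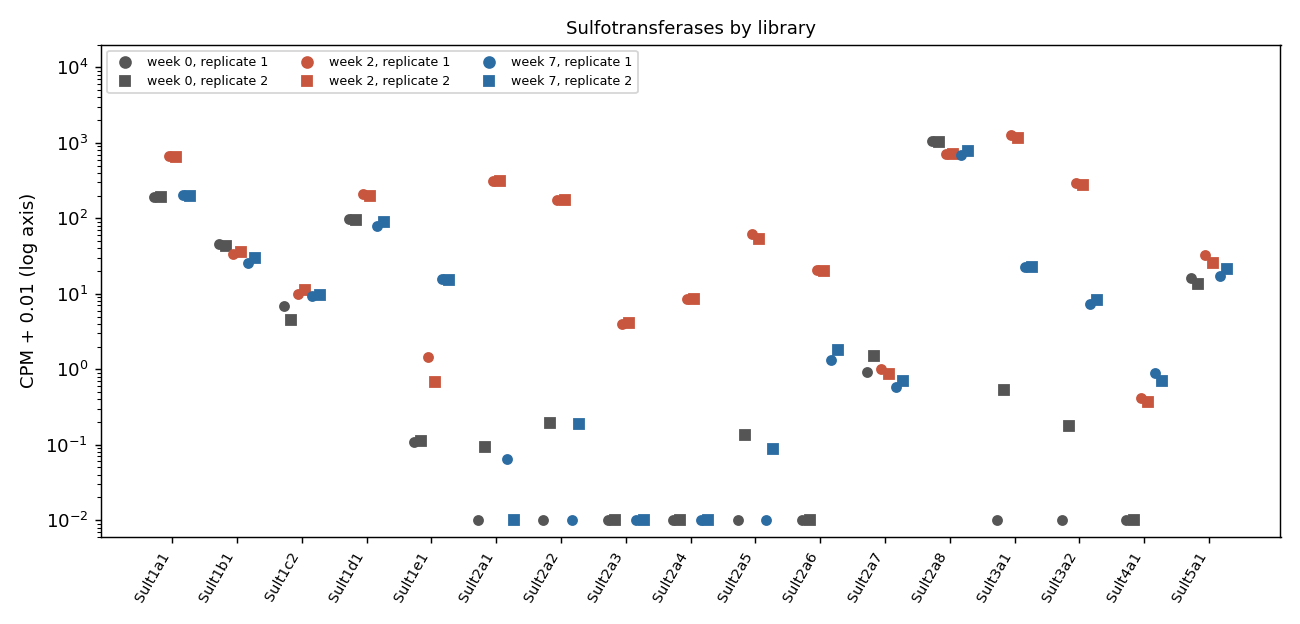
Sulfotransferase levels by library as CPM plus 0.01 on a log axis, coloured by week with a marker for each replicate, so a library with 0 counts sits at 0.01. Sult2a1 to Sult2a6, Sult3a1 and Sult3a2 are highest in the week 2 libraries, Sult1e1 is highest in the week 7 libraries, and Sult2a8 changes little on this scale.

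At week 2, where libraries differ from week 0 in sex as well as time, 23 members were higher, 15 lower and 21 not called (61.3% of 62 called, beside 18.6% of all genes tested, 9.81% higher and 8.81% lower). Of the 43 members with a mean of at least 20 CPM over all 6 libraries 65.1% were called, beside 32.4% of genes. Sult2a1, Sult2a2, Sult3a1, Sult3a2 and Ugt2b37 are among those called and reach that mean through their week 2 libraries. The level is therefore not independent of the change at week 2. Sulfotransferases led: 14 of 17 were higher and 2 lower, and the family's share of counts was 0.136% and 0.134% in week 0, 0.391% and 0.378% in week 2, and 0.108% and 0.116% in week 7. Of those 14, only 4 passed the filter on low counts in both weeks. The others did not pass it at week 0, so they entered the test through later libraries and had no room to be called lower. Over all members, 13 of the 23 higher and all 15 lower calls passed it in both weeks. Glutathione transferases had 7 higher and 5 lower, and glucuronosyltransferases 2 higher and 8 lower. Of these 38 calls, 27 held under all scalings, filters, fits and left-out libraries tried, and the lower count fell to 9 without week 2 replicate 2. Lost calls not named below were the falls of Ugt2a3, Sult1b1 and Mgst1 and the rises of Sult4a1 and Sult1e1. The Ugt2a3 call was lost in 9 settings and the Sult1b1 call in 7. Since this comparison uses the same week 0 libraries as that of week 7, values are set side by side and no overlap is read from them.

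Of the Sult2a genes, Sult2a1 to Sult2a5 had at most 9 counts in any library outside week 2. Sult2a1 (ENSMUSG00000078798) had 0 and 4 counts in week 0, 18554 and 18292 in week 2, and 3 and 0 in week 7. Sult2a2 (ENSMUSG00000070811) had 0 and 9, then 10639 and 10252, then 0 and 9 counts. Sult2a4 (ENSMUSG00000074377) had 0 and 0, then 513 and 503, then 0 and 0 counts, at least 34.8-fold higher at week 2 than at week 0. All 3 rose by week 2 (edgeR adjusted p = 0.000789, 0.00729 and 2.36e-05). Sult2a6 was at least 83.7-fold higher at week 2 than at week 0 (8.74e-07).

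Sult2a3 and Sult2a5 behaved likewise and are named after their values were seen. Sult2a3 had 235 and 244 counts at week 2 and 0 in all other libraries (at least 16.4-fold, 0.000229), and Sult2a5 had 3769 and 3175 at week 2 and 0 to 6 elsewhere (0.00136). Of the Sult2a genes 34.6% of the stretches of Sult2a2, 16.6% of Sult2a5 and 11.4% of Sult2a1 are shared, so the split among them is uncertain. Sult3a1 and Sult3a2 also rose by week 2 (0.00702 and 0.0015), the former call being lost without week 2 replicate 1 (0.051). Against week 2, Sult3a1 was 53.4-fold and Sult3a2 36.7-fold lower at week 7 (0.0165 and 0.00407). The Sult3a1 fall was lost without any 1 of the week 2 or week 7 libraries (0.0827 to 0.127), and that of Sult3a2 without week 7 replicate 2 (0.0536).

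Outside the Sult2a and Sult3a groups, Sult1a1 (ENSMUSG00000030711), the phenol sulfotransferase, had 192 and 192 CPM in week 0, 664 and 640 in week 2, and 204 and 195 in week 7. Its week 2 libraries alone stand apart (3.39-fold, log2 1.76, SE 0.0412, adjusted p = 1.02e-08). Sult1d1 (ENSMUSG00000029273), which acts on catecholamines, had 98.4 and 94.8 CPM in week 0, 211 and 198 in week 2, and 79.7 and 90.2 in week 7 (week 2 2.12-fold, log2 1.08, SE 0.0696, adjusted p = 9.28e-06). Ugt2b37 was 35.0-fold higher at week 2 than at week 0 (log2 5.13, SE 0.0896, adjusted p = 1.41e-09). Sult1c2, Sult5a1, Mgst3, Gstk1, Gsto1 and Ugt3a2 were also called higher at week 2 and were not called at week 7. A missing call is not a missing rise: Sult1c2 had a log2 fold change of 0.73 at week 7 and 0.89 at week 2. It was not called between weeks 2 and 7. The Sult1c2 call was lost without week 0 replicate 2 (0.0819), week 2 replicate 1 (0.051) or week 2 replicate 2 (0.11), and that of Ugt3a2 without week 0 replicate 1 (0.0723) or week 2 replicate 1 (0.0817).

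The deepest falls at week 2 included Gstp1, 4.20-fold lower than at week 0 (log2 -2.07, SE 0.054, adjusted p = 1.85e-08). Its near copy Gstp2 (ENSMUSG00000038155), with 3.73 and 7.11 CPM in week 0, 1.85 and 1.52 in week 2, and 7.48 and 6.28 in week 7, also fell at week 2 (log2 -1.68, SE 0.32, adjusted p = 0.00654). The pair shares 52.8% of the stretches of Gstp1, and the Gstp2 call was lost without week 2 replicate 2 (0.0624). Ugt2b38 was 3.90-fold lower (0.000185), Gsta2 3.54-fold (7.48e-06), Ugt2b1 2.22-fold (4.99e-07) and Ugt1a7c 2.04-fold (0.0412). The Ugt1a7c call was lost without each single week 0 or week 2 library (0.0815 to 0.192). Ugt2b5 fell 1.61-fold (5.29e-06) and Ugt1a9 1.93-fold (4.41e-07).

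Mu-class members split at week 2. Gstm2 and Gstm3 were 2.74-fold and 2.46-fold higher than at week 0 (1.42e-06 and 2.81e-07), while Gstm1, Gstm6 and Gstm7 did not pass (0.376, 0.181 and 0.495) and Gstm4 was lower (0.00941). The Gstm4 call was lost without week 0 replicate 2 or week 2 replicate 2 (0.0665 and 0.0665). Between weeks 2 and 7, tested directly, Gstm1 was 1.47-fold, Gstm3 1.63-fold, Gstm6 1.75-fold and Gstm7 1.42-fold higher at week 7 (5.46e-05, 1.64e-05, 0.000116 and 0.0112), and Gstm2 did not pass (0.432). The Gstm7 call was lost without week 2 replicate 2 (0.0779), week 7 replicate 1 (0.0727) or week 7 replicate 2 (0.0549). Over all members that comparison had 14 higher and 23 lower calls (59.7% of 62, beside 19.8% of all genes tested, 10.1% higher and 9.73% lower), and 11 of the 23 were sulfotransferases. Of those 11, 6 passed the filter on low counts in both weeks.

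Levels are ranked between genes here per kilobase, whereas abundant members were picked above by CPM not divided by length. The annotation behind the table is not given in the sources used here. Lengths are therefore from GENCODE release 21 of the mouse set (all exons, or the longest coding transcript). Mgst1 led at week 0 with a mean of 1070 CPM per kilobase of exon, followed by Gstp3 (903) and Ugt2b5 (492). At week 2 Sult3a1 led with 1051 CPM per kilobase of exon, above Gstp3 (867) and Mgst1 (749). At week 7 Mgst1 (846) and Gstp3 (839) led again, with Gstm1 (641) in the next place, and Gstm3 went from 42.0 to 168 CPM per kilobase between weeks 0 and 7. The order depends on the length used: per kilobase of coding transcript Gsta3 comes to 1014 at week 0 instead of 340, and at week 2 Sult3a1 lies behind Mgst1, Gstp3 and Gsta3.

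The genes that supply the cofactors, and the other lists of the pathway, are given as counts called at week 7, to be read beside the 7.58% of all genes tested that were higher and the 6.23% that were lower. Of 13 tested genes of glutathione supply and use, 0 were higher and 2 lower (median log2 fold change -0.20, beside 0.00156 for all genes): the peroxidases Gpx1, from 709 ± 11.1 to 590 ± 16.1 CPM (SD, n = 2, edgeR adjusted p = 0.00234), and Gpx4, from 312 ± 5.57 to 272 ± 2.88 (0.00925). Of 7 genes of UDP-glucuronic acid supply and glucuronide removal, 1 was higher and 0 lower (median 0.14): Slc35d1, which carries UDP-glucuronic acid into the endoplasmic reticulum, from 78.1 ± 1.22 to 93.4 ± 6.82 CPM (0.041). Of 9 genes of sulfate donor supply and sulfate removal, 2 were higher and 1 lower (median 0.08). Papss1, a PAPS synthase, went from 18.6 ± 1.34 to 13.2 ± 1.35 CPM (0.0428), the PAPS carrier Slc35b2 from 47.4 ± 0.877 to 60.5 ± 2.69 (0.0162), and the arylsulfatase Arsa from 29.0 ± 0.478 to 44.6 ± 4.53 (0.00465).

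Other conjugating enzymes, which transfer methyl, acetyl or amino acid groups, had 3 of 17 higher and 4 lower, beside 13.8% of all genes called (median -0.14). Nnmt, a nicotinamide methyltransferase, rose from 8.37 ± 0.373 to 16.7 ± 0.907 CPM (0.00023), and As3mt, which methylates arsenic, from 9.35 ± 1.79 to 19.9 ± 2.30 (0.00188). Glyat, which conjugates glycine, fell from 319 ± 1.38 to 246 ± 3.54 (0.00037), and the acyl-CoA synthetase Acsm3 from 109 ± 7.79 to 85.5 ± 2.80 (0.0104). At week 2 the same list had 2 higher and 7 lower, beside 18.6% of all genes called.

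Xenobiotic sensors and their partners had 2 of 16 higher and 2 lower at week 7, where 13.8% of all genes tested were called (median -0.00318). Maff, a small partner of NRF2, rose from 8.27 ± 0.822 to 22.4 ± 4.07 CPM (0.00203) and Rxra, the partner of PXR and CAR, from 376 ± 5.11 to 469 ± 12.3 (0.00191). The bile acid receptor Nr1h4 fell from 85.1 ± 1.04 to 70.4 ± 2.73 (0.0227) and the estrogen receptor Esr1 from 38.1 ± 3.30 to 27.8 ± 2.94 (0.0168). Target genes of the sensors outside the conjugating families were divided, 5 of 16 higher and 5 lower beside the same 13.8% (median -0.06). Cyp1a2, a target of the aryl hydrocarbon receptor, rose 1.79-fold (1.4e-06), whereas Hmox1, an NRF2 target, fell from 53.1 ± 1.29 to 28.0 ± 2.87 CPM (0.000248) and Aldh1a7 from 174 ± 4.23 to 116 ± 1.07 (8.91e-05). Akr1b7 had a mean of 0.0415 CPM at week 0 and 2.81 at week 7 (0.000902), too few counts at week 0 for a fold.

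Conjugate efflux pumps were divided as well, with 2 of 7 higher and 2 lower, again beside 13.8% of all genes (median 0.11). Abcc2, which exports conjugates into bile, rose from 304 ± 2.17 to 439 ± 7.30 CPM (1.44-fold, adjusted p = 3.6e-05), and Abcc4, which exports them to blood, from 2.13 ± 0.928 to 5.26 ± 0.0543 (0.02). Abcc3, also an exporter to blood, fell from 107 ± 4.05 to 52.6 ± 1.19 (2.03-fold, 1.58e-05) and Abcg2 from 122 ± 1.51 to 81.9 ± 4.14 (0.000572). At week 2 Abcc2 and Abcc3 were both lower than at week 0 (0.00014 and 0.0261). Abcc2 thus lay below week 0 at week 2, where sex also differs, and above it at week 7.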

How the data were processed

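Liver poly-A RNA of 6 libraries, 2 at each of weeks 0, 2 and 7, was analysed, grouped by the sample titles. The authors deposited estimated counts for Ensembl genes, unscaled. Bowtie 0.12.2 and mm8 stand in the submitters' processing notes without a role, while the annotation and the counting program are not stated there. Rounding to whole numbers changed 0 values. Low values were stepped (68.3% to 69.6% of those from 4 to 43 were a multiple of 4 or 1 above), and 1 read pair was assumed to give 4 counts. Identifiers were matched to GENCODE release 21 for 54409 of 54446 genes.

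Counts were fitted in R 4.3.3 with edgeR 4.0.16: filterByExpr (15368 genes), TMM, a robust quasi-likelihood fit of all libraries with weeks as groups (3 residual degrees of freedom; common coefficient of biological variation 0.209) and 2-sided tests, Benjamini-Hochberg adjusted over all genes tested, with a call at an adjusted p under 0.05. Standard errors are the log2 fold change over the root of the F statistic and are approximate. The floor of 12 counts a library is worth 0.245, 0.201 and 0.228 CPM in weeks 0, 2 and 7. Replicates differed by more than counting error (robust SD of log2 differences 0.0522, 0.0476 and 0.0738 at weeks 0, 2 and 7 against 0.0264, 0.0268 and 0.0263), so each library was kept. PCR reads carry no molecular identifiers, so floors cover counting error only. The method was tested on simulated data with a smaller coefficient of biological variation than that of these libraries. Changed genes were drawn there only above a minimum level, so calls on members with few counts were not covered.

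The members and lists were chosen with earlier results of these data known. Values are given for every member called between weeks 7 and 0 and for the 4 of each family with the highest mean CPM. Also given are the 6 higher and 6 lower called members with the largest change at week 2. Each pathway list adds up to 2 called genes in each direction. Alternatives were other scalings and filters, DESeq2 1.42.0, voom in limma 3.58.1, the 4 compared libraries alone, counts divided by 4, a replicate block, each library left out, a test against a fold change of 1.5 and a threshold of 0.01 on the adjusted p. Tables and figures used Python 3.11.15, pandas 2.3.3 and matplotlib 3.10.9.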

Additional observations from a re-analysis of the deposited data

How the results depend on the processing

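With 2 libraries a week, low counts and near-identical copies limit what single members show, and no alternative separates time from sex or treatment. Of 543 values of 34 named members at week 7 against week 0, 474 kept direction and side of the threshold, 64 lost the call, 2 gained it and 3 changed sign. Of 591 values of 37 members at week 2 against week 0, the numbers were 545, 31, 8 and 7. Against a fold change of 1.5 (edgeR glmTreat), the week 7 counts fell from 14 to 5 higher and from 14 to 0 lower (2 at an unadjusted p under 0.05, where DESeq2 and voom without that fold had 14 each), the week 2 lower count from 15 to 7, and the week 7 against week 2 counts from 14 to 6 higher and from 23 to 11 lower. This test asks for a larger change. An adjusted p under 0.01 left 9 higher and 8 lower at week 7, and the 4 compared libraries alone left 9 lower. Leaving out 1 library gave 9 to 13 higher and 8 to 12 lower at week 7 against week 0, 19 to 25 higher and 9 to 14 lower at week 2 against week 0, and 13 to 15 higher and 17 to 21 lower at week 7 against week 2, in each case with fewer samples.

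Changes of sign were confined to members with no call in that comparison. At week 7 against week 0, Gstp1 had a log2 fold change of 0.0095 with total counts, against -0.027, and leaving out 1 library gave -0.107 to 0.051 for Gstp1 (highest without week 7 replicate 2) and -0.048 to 0.886 for Gstp2 (lowest without week 0 replicate 1). At week 2 against week 0, total counts gave 0.023 for Gstm1, 0.033 for Gstp3 and 0.066 for Ugt2b34, upper-quartile scaling gave 0.0055 for Ugt2b34, and leaving out 1 library gave -0.25 to 0.014 for Gstm7 (highest without week 0 replicate 2), -0.011 to 0.058 for Ugt1a1 (lowest without week 2 replicate 1) and -0.059 to 0.0084 for Ugt2b34 (highest without week 2 replicate 2). The cause was not tested.

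Replicate numbers are shared between weeks, but same-numbered libraries did not deviate together (r = -0.0089, -0.041 and -0.068 across 15368 genes for the 3 pairs of weeks). A fit with the replicate block called 12 higher and 11 lower at week 7 against week 0, 24 and 12 at week 2 against week 0, and 15 and 19 at week 7 against week 2, and 6, 3 and 4 of the calls in these comparisons were lost under it.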
